A study of Mus musculus with 12 samples.

Results

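Complement is a set of plasma and tissue proteins that tag cells, debris and immune complexes for removal. The 8 genes described here were picked by symbol, for their roles in that system: C1qa, C1qb and C1qc, which encode the chains of the recognition molecule C1q; C3, the central component; C3ar1 and C5ar1, the receptors of the anaphylatoxins C3a and C5a; Vsig4, a receptor on macrophages for C3b and iC3b; and Serping1, the C1 inhibitor. Each was read from the 1 probe set whose annotation gave that symbol alone, and 7 of the 8 had one, out of 19938 genes read the same way. No probe set was annotated with C3 alone, so C3 was not analysed here. All 7 passed the filter on dim probe sets that left 14944 genes for testing. Vsig4 passed it through its knockout groups only: its mean level was 7.18 in wild-type controls and 6.95 in mutant controls, against a limit of 7.31 on the log2 scale, so its differences are described apart from the counts of the other 6.

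The study hybridised RNA of the mouse ascending aorta, taken between the coronary arteries and the first branch of the arch, to 12 arrays in 4 groups of 3. All mice carried Myh11-CreERT2 and Tgfbr2f/f, a tamoxifen-dependent Cre driven by the promoter of smooth muscle myosin heavy chain and a floxed type II TGF-β receptor. The wild-type control and wild-type knockout groups had wild-type Fbn1, and the mutant control and mutant knockout groups were heterozygous for Fbn1C1039G, a mouse model of Marfan syndrome. From 4 weeks of age the controls received corn oil and the knockouts 1 mg of tamoxifen, injected intraperitoneally for 5 days, and the mice were killed at 6 weeks. Each knockout comparison therefore also sets tamoxifen against corn oil, and these cannot be told apart. Cre was confined to cells that use the Myh11 promoter, while the RNA came from the whole wall and any attached tissue. Nothing in the labels shows that the 3 arrays within a group are 3 different mice, and a p-value here speaks only of the spread from array to array. Values are log2 of the deposited array intensity. A change is a difference of group means on that scale, with its standard error (SE) from the fit across all genes, and a gene counts as changed where its p-value, adjusted over all 14944 genes by the Benjamini-Hochberg method, lay under 0.05.

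The complement cascade starts along different routes. In the classical route C1q binds antibody or other ligands and activates the proteases C1r and C1s, which cut C4 and C2. All routes meet at C3, whose cleavage leaves C3b on the target and releases C3a, and C5 cleavage then releases C5a. C1q differs from most complement proteins in that macrophages and dendritic cells, rather than hepatocytes, are its main source. C3ar1 and C5ar1 are found mainly on myeloid cells, Vsig4 on resident tissue macrophages, and Serping1 is made by fibroblasts, endothelial cells and many others. In a normal aorta, macrophages lie mostly in the adventitia.

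The chromosome 4 genes C1qb, C1qc and C1qa follow each other in that order in RefSeq, between Ephb2 and Epha8, with no other protein-coding gene between them, and C5ar1 lies beside C5ar2 on chromosome 7. RefSeq promoters (build GRCm38.p6) were given for 6 of the 8 genes, C3 among them, and not for C1qa and Serping1. The 250 bases before the start were searched on both strands for 4 motifs: GAGGAA, the core bound by the myeloid factor PU.1; TTCNNNGAA, the GAS element of STAT factors; the interferon-stimulated response element; and CAGACA, a repeat bound by SMAD proteins, which act downstream of TGF-β receptors. GAGGAA was found in 3 of the 6 promoters, CAGACA in 2, and the other motifs in 0. Over the 32851 promoters of the table, windows of the same length held GAGGAA in 23.3%, TTCNNNGAA in 7% (2306 promoters), the interferon-stimulated response element in 3% (978 promoters) and CAGACA in 17.1%. The 3 promoters with GAGGAA are shown because they put the classical component genes C1qb and C1qc beside Vsig4. Wild-type and mutant knockouts overlapped for Vsig4 and not for C1qb and C1qc, and the genes were not tested against each other. Each promoter is on the minus strand and is written in the direction of transcription, with the matches in capitals. They are C1qb at chr4:136886201-136886450, C1qc at chr4:136892915-136893164 and Vsig4 at chrX:96293439-96293688.
C1qb: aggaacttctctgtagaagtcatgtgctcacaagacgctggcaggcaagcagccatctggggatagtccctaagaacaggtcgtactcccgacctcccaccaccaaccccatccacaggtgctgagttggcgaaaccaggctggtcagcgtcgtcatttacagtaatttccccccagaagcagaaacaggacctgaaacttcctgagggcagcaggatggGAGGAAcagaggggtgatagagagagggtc
C1qc: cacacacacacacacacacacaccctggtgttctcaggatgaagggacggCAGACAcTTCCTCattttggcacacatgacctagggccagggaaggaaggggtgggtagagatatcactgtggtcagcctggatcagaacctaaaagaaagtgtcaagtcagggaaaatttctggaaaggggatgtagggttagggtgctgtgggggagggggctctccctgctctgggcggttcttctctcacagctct
Vsig4: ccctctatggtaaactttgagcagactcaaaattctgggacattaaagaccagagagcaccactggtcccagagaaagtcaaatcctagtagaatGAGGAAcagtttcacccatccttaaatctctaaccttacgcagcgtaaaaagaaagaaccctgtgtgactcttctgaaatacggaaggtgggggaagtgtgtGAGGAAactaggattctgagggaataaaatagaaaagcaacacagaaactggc
In C1qb the match to GAGGAA lies 30 to 25 bases before the start, and in Vsig4 matches lie 155 to 150 and 53 to 48 bases before it. In C1qc the match is on the other strand, read here as TTCCTC, 193 to 188 bases before the start, with CAGACA at 200 to 195. No match overlaps another. C3ar1 held CAGACA, 177 to 172 bases before its start, and no GAGGAA. A match is a description of the letters and not a binding site shown in this tissue.

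The arrays were alike in overall brightness, with medians of 301 to 334 intensity units. Smooth muscle markers were bright in all groups: the mean log2 level over 10 of them lay between 13.23 and 13.35 on every array. Tgfbr2, the targeted gene, was at 11.96, 11.96 and 11.94 in the wild-type controls, 11.88, 11.95 and 11.79 in the wild-type knockouts, 12.04, 11.98 and 11.95 in mutant controls and 12.05, 12.07 and 11.98 in mutant knockouts. Its groups overlapped in both knockout comparisons, with a change of -0.08 ± 0.05 (SE) in wild-type mice (two-sided exact permutation p = 0.2) and 0.04 ± 0.05 in mutant mice (exact p = 0.3), where 3 against 3 arrays cannot go below 0.1. Tgfbr2 thus did not separate knockouts from controls; whether its probes lie in the deleted part is not given in the sources used here. The free-text descriptions of knockouts 2 and 3 in both genotypes name Tgfbr3 and Tgfbr4 as the gene knocked out, while their titles, their sample codes and the study's design name Tgfbr2. The groups are used as the titles give them, so that knockout means here the array labelled so.

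In mice with wild-type Fbn1, the 3 C1q genes, both anaphylatoxin receptors and Serping1 were higher in the knockouts, and so was Vsig4. C1q chains rose about as much as each other, by 1.98-fold to 2.12-fold, C3ar1 by 2.24-fold and C5ar1 by 1.74-fold, while Serping1 rose by 1.11-fold only. The count is 6 of 6 genes higher, without Vsig4, where 9.17% of all genes tested were called higher and 18.8% were called in either direction. All 6 had knockout arrays that lay wholly above the control arrays, as 16.2% of all genes did. RNA came from whole tissue, so more cells of a type and more RNA per cell cannot be told apart.

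C1qa, the A chain of C1q, was at 9.83, 9.84 and 10.04 in the wild-type controls, 10.98, 10.85 and 11.12 in the wild-type knockouts, 9.91, 9.99 and 10.30 in mutant controls and 10.58, 10.62 and 10.54 in mutant knockouts. The 2 control groups overlap each other, the mutant knockouts lie above both, and the wild-type knockouts lie above all other arrays. The change with knockout was 1.08 ± 0.10 in wild-type mice (adjusted p = 2.16e-05) and 0.51 ± 0.10 in mutant mice (adjusted p = 0.00639, 1.43-fold).

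C1qb, the B chain, was at 11.40, 11.48 and 11.82 in the wild-type controls, 12.53, 12.51 and 12.62 in the wild-type knockouts, 11.34, 11.49 and 11.89 in mutant controls and 12.12, 12.20 and 12.04 in mutant knockouts. Its groups have the same order as those of C1qa, with the same overlap of the control groups. The change was 0.98 ± 0.13 in wild-type mice (adjusted p = 0.000228) and 0.55 ± 0.13 in mutant mice (adjusted p = 0.0165, 1.46-fold). In mutant mice the call was lost without mutant control 1 (0.43, adjusted p = 0.0607), mutant control 2 (0.50, 0.0641) or mutant knockout 2 (0.51, 0.0581).

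C1qc, the C chain, was at 10.45, 10.62 and 11.03 in the wild-type controls, 11.75, 11.62 and 11.75 in the wild-type knockouts, 10.51, 10.78 and 11.12 in mutant controls and 11.44, 11.53 and 11.44 in mutant knockouts. Here too the control groups overlap and the mutant knockouts lie between them and the wild-type knockouts. The change was 1.01 ± 0.15 in wild-type mice (adjusted p = 0.00054) and 0.67 ± 0.15 in mutant mice (adjusted p = 0.0124, 1.59-fold). The SD within groups was larger for C1qc (0.217) and C1qb (0.185) than for C1qa (0.139).

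C3ar1, the C3a receptor, was at 9.39, 9.33 and 9.82 in the wild-type controls, 10.85, 10.47 and 10.71 in the wild-type knockouts, 9.67, 9.87 and 9.97 in mutant controls and 10.27, 10.31 and 10.23 in mutant knockouts. The control groups overlap through wild-type control 3, and the other groups do not overlap any. The change was 1.16 ± 0.12 in wild-type mice (adjusted p = 6.59e-05) and 0.43 ± 0.12 in mutant mice (adjusted p = 0.04, 1.35-fold). The call in mutant mice was lost without wild-type knockout 3, mutant control 1 or 2, or any 1 of the mutant knockouts, with changes of 0.35 to 0.45 and adjusted p up to 0.13. Centring the arrays on their medians lost it too (0.39, adjusted p = 0.0578). So did leaving out both mutant control 3 and mutant knockout 1 (0.50, 0.0775).

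C5ar1, the C5a receptor, was at 8.61, 8.77 and 8.99 in the wild-type controls, 9.51, 9.59 and 9.66 in the wild-type knockouts, 8.61, 8.71 and 9.18 in mutant controls and 9.25, 9.23 and 9.29 in mutant knockouts. Mutant control 3 came close to the mutant knockouts without reaching them. The change was 0.80 ± 0.13 in wild-type mice (adjusted p = 0.000892) and 0.42 ± 0.13 in mutant mice (adjusted p = 0.0432, 1.34-fold). The call in mutant mice was lost when wild-type control 2, any 1 of the wild-type knockouts, mutant control 1 or 2, or any 1 of the mutant knockouts was left out, with changes of 0.31 to 0.44 and adjusted p up to 0.148. It was also lost with quantile normalization (0.41, adjusted p = 0.0538) and with arrays centred on their medians (0.38, 0.0629). Fitting only the groups compared lost it as well (0.42, 0.0795).

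Vsig4, the macrophage receptor for C3b and iC3b, was at 6.65, 7.55 and 7.33 in the wild-type controls, 8.66, 9.21 and 9.01 in the wild-type knockouts, 6.65, 6.55 and 7.64 in mutant controls and 8.95, 8.42 and 8.83 in mutant knockouts. The control groups overlap each other, the knockout groups overlap each other, and no knockout array lies as low as any control array. The change was 1.78 ± 0.28 in wild-type mice (adjusted p = 0.000956) and 1.79 ± 0.28 in mutant mice (adjusted p = 0.00218). With no filter, so that Vsig4 is tested whatever its level, the adjusted p was 0.000902 and 0.00212. No fold is given, since its control levels lie near the dim end of the array. Its spread within groups, an SD of 0.430, was the widest of the 7 genes.

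Serping1, which inhibits C1r, C1s and the lectin route's proteases, was at 13.35, 13.35 and 13.46 in the wild-type controls, 13.56, 13.54 and 13.51 in the wild-type knockouts, 13.48, 13.50 and 13.56 in mutant controls and 13.52, 13.55 and 13.51 in mutant knockouts. The wild-type controls are the low group, and the other 3 groups overlap one another. The change with knockout was 0.15 ± 0.05 in wild-type mice (adjusted p = 0.0428) and 0.02 ± 0.05 in mutant mice (adjusted p = 0.835). The call in wild-type mice was lost without wild-type control 1 or 2, any 1 of the wild-type knockouts, mutant control 2, or mutant knockout 1 or 2, with changes of 0.13 to 0.16 and adjusted p up to 0.138.

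**Figure D1:**
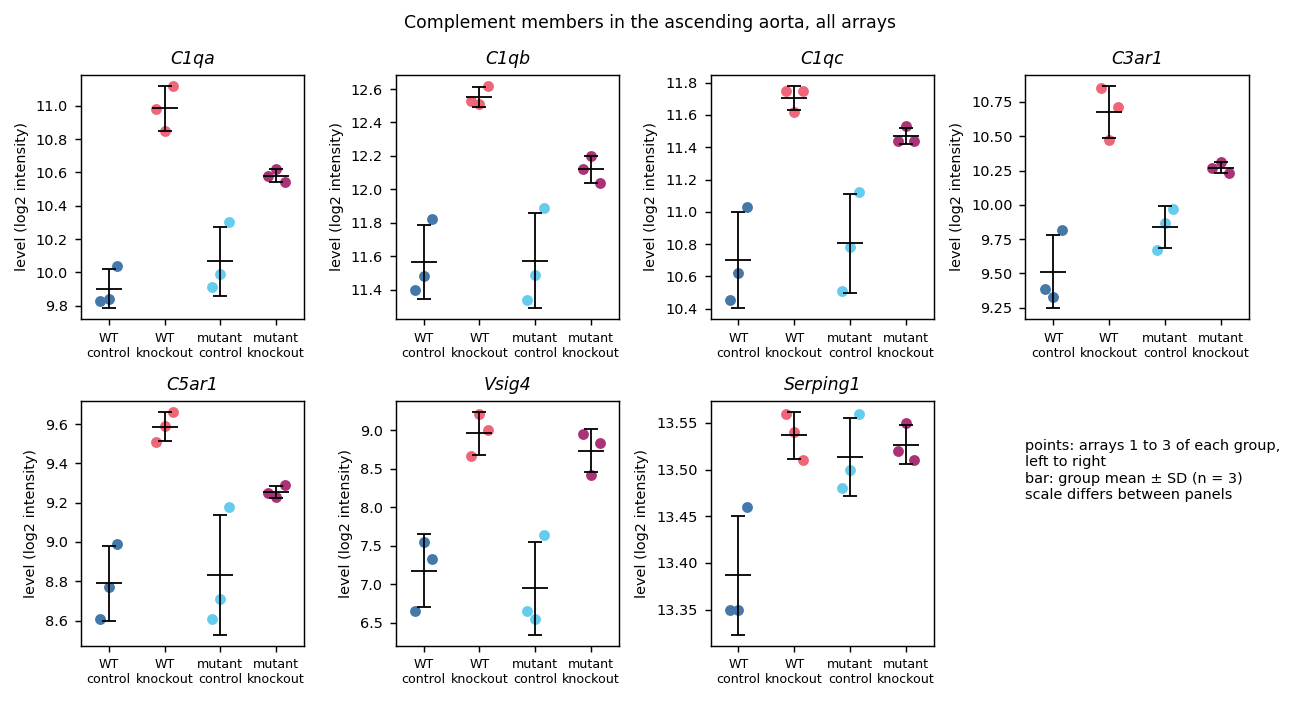
Level of each of the 7 measured complement genes (log2 intensity, vertical axis, scale differing between panels) on each of the 12 arrays by group; points are arrays 1 to 3 from left to right and bars are the group mean ± SD (n = 3). In 5 panels the wild-type knockouts stand highest and the mutant knockouts next; in Vsig4 both knockout groups stand together, and in Serping1 only the wild-type controls stand apart.

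In mice heterozygous for Fbn1C1039G, the C1q genes, C3ar1, C5ar1 and Vsig4 were higher in the knockouts, and Serping1 did not pass the test. Without Vsig4, 5 of 6 genes were called higher, where 7.66% of all genes tested were called higher and 13.4% in either direction. The same 5 genes had knockout arrays wholly above the control arrays, as 21.7% of all genes did. Leaving out mutant control 1, mutant control 2 or mutant knockout 2 each took the number called, Vsig4 included, from 6 to 3. Mutant control 3 and mutant knockout 1 were the arrays of highest Ucp1, a marker of brown fat, at 8.58 and 8.21 against 6.75 to 7.30 elsewhere; without both of them 5 genes, Vsig4 included, were called in mutant mice and 6 in wild-type mice. The immediate early genes, which respond within minutes to handling of tissue, had their highest mean score on mutant knockout 1 (0.742, on the log2 scale centred over arrays), and with that score as a covariate the number called in mutant mice was 2. The changes behind the calls lost there were 0.61 for C1qb, 0.75 for C1qc, 0.57 for C3ar1 and 0.41 for C5ar1, as large as or larger than those without it except for C5ar1, which was 0.42. Of the 2 genes that kept their calls, C1qa changed by 0.59 against 0.51 without the score, and Vsig4 by 1.36 against 1.79. In wild-type mice Vsig4 changed by 1.53 with the score against 1.78 without it.

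The estimated increase was smaller in mutant than in wild-type mice for the C1q genes and the anaphylatoxin receptors, but no difference between the knockout effects passed the test. The effect in mutant mice minus that in wild-type mice was -0.73 ± 0.18 for C3ar1 (adjusted p = 0.0622), -0.57 ± 0.14 for C1qa (adjusted p = 0.0671), -0.44 ± 0.18 for C1qb (0.243), -0.38 ± 0.18 for C5ar1 (0.314) and -0.34 ± 0.21 for C1qc (0.433). For Vsig4 it was 0.0037 ± 0.40 (0.998), an error that leaves room for a difference as large as those of the C1q genes. For Serping1 it was -0.13 ± 0.07 (0.336). C1qa, C1qb and C3ar1 had an unadjusted p under 0.05 in the limma fit, a limit at which the share of all genes was not counted. By adjusted p, 1.48% of all genes were called in this comparison. C3ar1 was called without wild-type control 3 (-0.89, adjusted p = 0.0129) or without wild-type knockout 2 (-0.84, 0.0404).

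Among the knockouts, mutant arrays were the lower ones. C1qa was lower in mutant than in wild-type knockouts by a change of -0.40 ± 0.10 (adjusted p = 0.0314) and was the 1 gene called, where 3.16% of all genes tested were called lower and 5.96% in either direction. C1qa, C1qb, C1qc, C3ar1 and C5ar1 had mutant arrays wholly below the wild-type ones, as 11.9% of all genes did. C1qb differed by -0.43 ± 0.13 (adjusted p = 0.0675), C3ar1 by -0.41 ± 0.12 (0.0762), C5ar1 by -0.33 ± 0.13 (0.151) and C1qc by -0.24 ± 0.15 (0.408). Vsig4 differed by -0.23 ± 0.28 (0.715) and Serping1 by -0.0062 ± 0.05 (0.964), both with overlapping groups. The call of C1qa was lost without wild-type knockout 1 (-0.41, adjusted p = 0.0896), wild-type knockout 3 (-0.34, 0.12) or mutant knockout 1, 2 or 3 (-0.41, -0.42 and -0.39, adjusted p up to 0.0947). Without wild-type control 3 or mutant control 3 the number called was 3, and without mutant control 1 or wild-type knockout 2 it was 2: C1qb was called without wild-type control 3, mutant control 1 or mutant control 3 (adjusted p from 0.0203 to 0.0485), C3ar1 without wild-type control 3 (0.025) or wild-type knockout 2 (0.0495), and C5ar1 without mutant control 3 (0.0357).

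In the controls, the Fbn1 mutation was not accompanied by a called change in any of the 7 genes. C3ar1 and Serping1 had an unadjusted p under 0.05 in the limma fit, a limit at which the share of all genes was not counted. By adjusted p, 6.49% of all genes were called. C3ar1 was higher by 0.33 ± 0.12 (adjusted p = 0.137) with overlapping groups, and it passed the test without wild-type control 3 (0.48, adjusted p = 0.0307). Serping1 was higher by 0.13 ± 0.05 (adjusted p = 0.127), with no overlap, as 11.4% of all genes were. C1qa differed by 0.16 ± 0.10 (0.334), C1qc by 0.10 ± 0.15 (0.721), C5ar1 by 0.04 ± 0.13 (0.865), C1qb by 0.0084 ± 0.13 (0.978) and Vsig4 by -0.23 ± 0.28 (0.66).

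**Figure D2:**
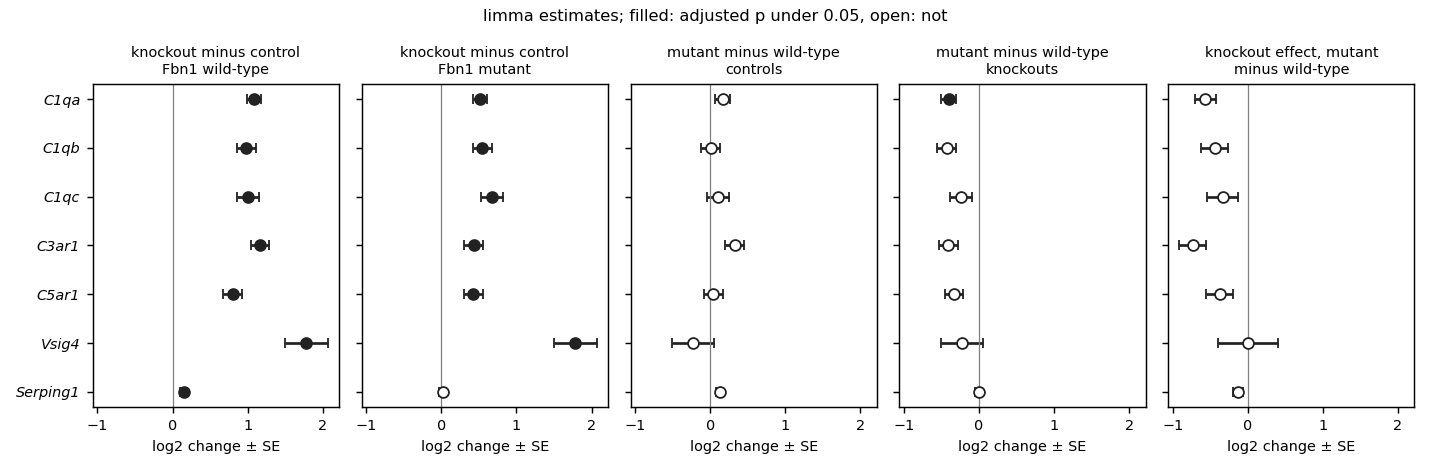
Estimated log2 change ± SE (horizontal axis) of the 7 measured complement genes in the 5 comparisons, from the limma fit to all 12 arrays; filled points have an adjusted p under 0.05. All 7 points are filled in the first panel and 6 in the second; in the last panel C3ar1 (-0.73) and C1qa (-0.57) lie farthest below 0 and are open.

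The order of the groups was wild-type knockout, mutant knockout, mutant control, wild-type control from high to low for C1qa, C1qb, C1qc, C3ar1 and C5ar1, with only the neighbouring control groups overlapping. For Vsig4 the neighbours wild-type knockout (8.96) and mutant knockout (8.73) overlapped, as did wild-type control and mutant control. From the lowest to the highest array, C1qa spanned 2.45-fold, C1qb 2.42-fold, C1qc 2.46-fold, C3ar1 2.86-fold, C5ar1 2.07-fold and Serping1 1.16-fold. Vsig4 ranged from log2 6.55, below the filter limit of 7.31, to 9.21, and no fold is given for it. Within the control groups, 1 array of each stood high for most genes. Wild-type control 3 was the highest of its group in 6 of 7 genes, all but Vsig4, and in 13 of 19 macrophage markers. Mutant control 3 was the highest of its group in 7 of 7 genes and in 16 of 19 macrophage markers.

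Over the 12 arrays, C1qa and C1qb were close to each other in pattern, and 4 of the 9 places nearest to the C1q genes outside the 7 were held by genes of the macrophage marker list. Likeness was measured as the root mean square distance between log2 values after subtracting each gene's mean. The values were not scaled, so the distance depends on how widely a gene varied as well as on its course. Predicted genes were left out of the neighbours named but not of the ranks. All genes were read on the same arrays, and the distance is a description with no test. C1qb ranked 2nd nearest of the 14943 other genes to C1qa (0.0869), and C1qa the nearest to C1qb; C1qb was the nearest to C1qc (0.0994), which ranked 10th for C1qa, after C3ar1 at rank 9. The nearest genes other than the 7 were Laptm5 (0.0782), Fcer1g (0.092) and Pld4 (0.0926) for C1qa; Pld4 (0.0931), Car13 (0.113) and Alox5ap (0.119) for C1qb; and Fcer1g (0.113), Pld4 (0.114) and Cd68 (0.136) for C1qc. Laptm5, a lysosomal membrane protein of blood cells, Fcer1g, the common chain of Fc receptors, and Cd68 are on the macrophage marker list, and none of the 3 printed for C1qb is; Alox5ap encodes the activating protein of 5-lipoxygenase.

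The receptors divided. C3ar1 lay nearest to Adgre1 (0.102), a surface receptor that marks mouse macrophages, then Pld4 (0.113) and Cd68 (0.121), with C1qa (0.113) ranked 2nd when the other complement genes are counted. C5ar1 lay nearest to Alox5 (0.0948), the 5-lipoxygenase of leukotriene synthesis, Gna15 (0.101) and Sting1 (0.106), and C1qb (0.102) ranked 3rd. Vsig4, which varied the most, had no gene as near: its nearest were Thbs1 (0.373), which encodes thrombospondin 1, Adamtsl2 (0.441) and Wfdc17 (0.454), and C1qc ranked 20th (0.569). Serping1, which varied little, lay nearest to Psme3ip1 (0.0304), Fkbp1a (0.0366) and Gpx8 (0.0392), and C1qc stood 0.414 away from it, rank 14685.

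Most macrophage markers, like the C1q genes, C3ar1 and C5ar1, were higher in wild-type knockouts. Of 20 markers fixed for this cell type 19 were tested (Aif1 was below the filter), and 17 of 19 were called higher in wild-type knockouts (9.17% of all genes), with a median change of 0.94 against -0.0093 over all genes, and 7 of 19 in mutant knockouts (7.66% of all genes), with a median of 0.32 against 0.03. The summed intensity of the 19 ranged from 21221 to 23663 in wild-type controls, 34863 to 38396 in wild-type knockouts, 20789 to 26757 in mutant controls and 28442 to 30650 in mutant knockouts. Adgre1 changed by 1.22 ± 0.08 in wild-type mice (adjusted p = 2.91e-06) and 0.36 ± 0.08 in mutant mice (0.0154). Csf1r, the receptor for macrophage colony-stimulating factor, changed by 0.98 ± 0.08 (1.49e-05) and 0.32 ± 0.08 (0.0282). Cd68, a lysosomal protein of macrophages, changed by 1.07 ± 0.14 (0.000228) in wild-type mice and by 0.44 ± 0.14 in mutant mice, which did not pass (0.0522). The difference between the 2 knockout effects was called for 6 of the 19, all lower in mutant mice (1.08% of all genes were called lower and 1.48% in either direction), Adgre1 (-0.86 ± 0.12, adjusted p = 0.00415) and Csf1r (-0.66 ± 0.12, 0.0184) among them. The part of these cells in the change of the complement genes was not tested.

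The genes were also set against the mean log2 level of the 19 macrophage markers on the same array. Relative to its mean in wild-type controls, C1qa stood at 0.25 ± 0.06 (SD, n = 3) in wild-type knockouts, 0.02 ± 0.03 in mutant controls and 0.19 ± 0.06 in mutant knockouts. In the same order C1qb stood at 0.16 ± 0.06, -0.135 ± 0.10 and 0.06 ± 0.10, and C1qc at 0.18 ± 0.02, -0.04 ± 0.14 and 0.28 ± 0.06. C3ar1 stood at 0.33 ± 0.13, 0.18 ± 0.09 and 0.27 ± 0.06, and C5ar1 at -0.03 ± 0.10, -0.10 ± 0.12 and -0.02 ± 0.01. The wild-type controls themselves had an SD of 0.01 for C1qa, 0.11 for C1qb, 0.19 for C1qc, 0.15 for C3ar1 and 0.09 for C5ar1. Wild-type controls and wild-type knockouts overlap on this scale for C1qb, C1qc and C5ar1 and not for C1qa and C3ar1. For C1qc the wild-type controls ranged from -0.17 to 0.20. Mutant controls and mutant knockouts overlap on this scale for C1qb, C3ar1 and C5ar1 and not for C1qa and C1qc. Vsig4 stood 0.95 ± 0.34 above in wild-type knockouts, -0.37 ± 0.43 in mutant controls and 1.06 ± 0.27 in mutant knockouts, with every knockout array above every control array. Serping1 stood at -0.68 ± 0.09 in wild-type knockouts, -0.02 ± 0.13 in mutant controls and -0.35 ± 0.04 in mutant knockouts. Against this yardstick the wild-type and mutant knockouts overlap for C1qa, C1qb, C3ar1 and C5ar1, whose plain levels do not overlap, while for C1qc the mutant knockouts (0.23 to 0.35) lie above the wild-type ones (0.15 to 0.19), the reverse of the plain levels.

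**Figure D3:**
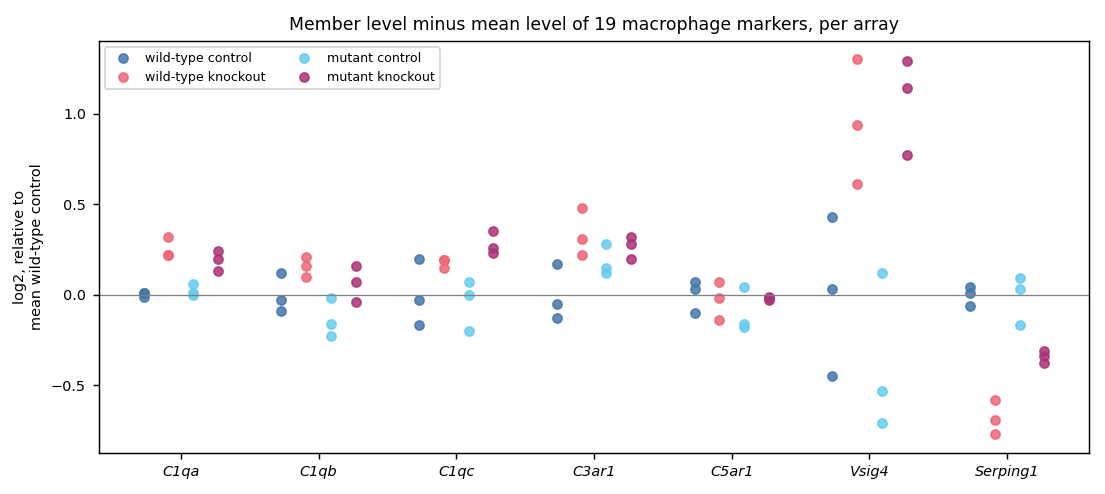
Level of each complement gene minus the mean log2 level of 19 macrophage markers on the same array, relative to the mean of the wild-type controls (vertical axis, log2); each point is 1 array, with 3 arrays per group. Vsig4 stands 0.61 to 1.30 above 0 in wild-type knockouts and 0.77 to 1.29 in mutant knockouts, C5ar1 stays between -0.18 and 0.07 in all groups, and Serping1 lies below 0 in both knockout groups.

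Markers of other cell types were read the same way. Over all genes, 9.17% were called higher and 9.66% lower in wild-type mice, and 7.66% higher and 5.77% lower in mutant mice. The share of all genes at an unadjusted p under 0.05 in the limma fit was not counted. In wild-type mice the median change of each other cell type list lay below the 0.94 of the macrophage list, while in mutant mice the endothelial (0.36) and mesothelial (0.36) medians lay above its 0.32. Of 10 neutrophil markers 3 were tested and 0 were called in wild-type mice by limma, with 1 at an unadjusted p under 0.05, and 1 of 3, Mpo, was called higher in mutant mice (0.21 ± 0.06, adjusted p = 0.0446; named after its value was seen); S100a8, S100a9 and Ngp, the first of that list, lay below the filter. Of 12 lymphocyte markers 4 were tested and 0 were called in wild-type mice, with 0 at an unadjusted p under 0.05; Cd3e changed by 0.11 ± 0.17. In mutant mice 1 of the 4, Cd79b, was called higher (0.15 ± 0.05, adjusted p = 0.0463; named after its value was seen), 3 of 4 had an unadjusted p under 0.05, the median was -0.29, and Cd3e changed by -0.36 ± 0.17 (0.159). Of 6 dendritic cell markers tested 2 were called higher in wild-type mice and 0 in mutant mice, where 0 of 6 also had an unadjusted p under 0.05. Of 9 fibroblast markers 5 were called higher and 1 lower in wild-type mice and 2 higher and 1 lower in mutant mice; Pdgfra changed by -0.03 ± 0.06 and -0.15 ± 0.06, Dcn by 0.05 ± 0.05 and -0.08 ± 0.05, and Lum rose by 0.51 ± 0.08 (adjusted p = 0.000743) in wild-type mice. Of 10 endothelial markers 5 were called higher in wild-type and 6 in mutant mice; Cdh5 rose by 0.71 ± 0.16 (adjusted p = 0.0099) and 0.59 ± 0.16 (0.0343), while Pecam1 (0.15 ± 0.10 and 0.25 ± 0.10) and Kdr (0.16 ± 0.18 and 0.34 ± 0.18) did not pass. Of 10 smooth muscle markers 2 were called lower in wild-type mice and 1 higher and 1 lower in mutant mice, with Acta2, Myh11 and Tagln not called in either. Of 8 adipocyte markers tested 2 were called higher in each. Of 5 mesothelial markers 0 were called by limma in either, with 0 at an unadjusted p under 0.05, while 5 of 5 had a change above 0 in each, with medians of 0.39 and 0.36.

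The rest of the complement system was followed in 45 other genes, of which 42 had a probe set of their own and 31 were tested. In wild-type mice 12 of the 31 were called higher and 3 lower in knockouts, with a median change of 0.18 against -0.0093 over all genes; in mutant mice 6 were higher and 2 lower, with a median of 0.13 against 0.03. Over all genes, 9.17% were called higher and 9.66% lower in wild-type mice, and 7.66% higher and 5.77% lower in mutant mice. In mutant against wild-type controls 3 of the 31 were higher and 1 lower (3.17% and 3.33% of all genes), and in mutant against wild-type knockouts 2 were higher and 8 lower (2.8% and 3.16%). The knockout effect differed between the genotypes in 4, all smaller in mutant mice, where the effect in mutant mice was called lower for 1.08% of all genes and higher for 0.401%. Genes of the liver-made terminal route (C6, C9 and Hc, which encodes C5) and the plasma regulators Cfi, C4bp and Vtn lay below the filter.

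In the classical route, counting the C1q genes, 6 of 8 tested were called higher in wild-type knockouts (9.17% of all genes) and 4 of 8 in mutant knockouts (7.66%). C4b, which encodes complement C4, had mean levels of 10.50 ± 0.09 (SD, n = 3) in wild-type controls, 11.56 ± 0.05 in wild-type knockouts, 10.19 ± 0.20 in mutant controls and 10.52 ± 0.12 in mutant knockouts. It rose by 1.05 ± 0.09 in wild-type mice (adjusted p = 1.76e-05) and by 0.34 ± 0.09 in mutant mice (0.0334), and the mutant knockouts lay 1.03 below the wild-type knockouts (-1.03 ± 0.09, adjusted p = 0.000117). C4a rose by 0.61 ± 0.08 in wild-type mice (0.000276) and was lower in mutant than in wild-type knockouts (-0.66 ± 0.08, 0.000658). C1s1, a C1s protease, was at 10.38 ± 0.08 in wild-type controls, 11.01 ± 0.05 in wild-type knockouts, 10.88 ± 0.06 in mutant controls and 10.81 ± 0.09 in mutant knockouts. It rose by 0.63 ± 0.06 with knockout in wild-type mice (2.78e-05) and by 0.49 ± 0.06 with the mutation in controls (0.000814), and the change in mutant mice was -0.07 ± 0.06 (0.443). C1ra, a C1r protease, was called in the controls alone (0.30 ± 0.08, adjusted p = 0.0483). C4a and C4b, C1ra and C1rb, and C1s1 and C1s2 are near-identical copies whose probes may not separate them. The call of C4b in mutant mice was lost without mutant control 1 or 2 or mutant knockout 2 or 3 (0.24 to 0.33, adjusted p up to 0.131), and that of C1ra without any 1 of wild-type control 1 or 2, wild-type knockout 1 or 3, the mutant controls or the mutant knockouts (0.24 to 0.32, adjusted p up to 0.155).

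In the alternative route both genes tested were called higher in wild-type knockouts (9.17% of all genes). Cfb, factor B, rose by 0.79 ± 0.08 in wild-type mice (adjusted p = 3.22e-05), changed by 0.18 ± 0.08 in mutant mice (0.136) and was lower in mutant than in wild-type knockouts (-0.65 ± 0.08, 0.00046). Cfp, properdin, rose by 0.53 ± 0.15 in wild-type mice (0.0239) and by 0.58 ± 0.15 in mutant mice (0.0223). The first of these calls was lost without wild-type control 1 or 2 or wild-type knockout 2 or 3 (0.40 to 0.51, adjusted p up to 0.0922), and the second without mutant control 1 or 2 or mutant knockout 2 or 3 (0.51 to 0.58, adjusted p up to 0.082).

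In the lectin route, which recognises sugars, 3 of 8 genes were called higher and 1 lower in wild-type knockouts (9.17% and 9.66% of all genes). In mutant knockouts 2 of the 8 were called higher and 1 lower (7.66% and 5.77%). The collectin Colec10 rose by 0.27 ± 0.06 in wild-type mice (adjusted p = 0.0108) and 0.37 ± 0.06 in mutant mice (0.0037). Fcna, ficolin A, rose by 0.49 ± 0.14 (0.0257) and 0.61 ± 0.14 (0.0135), and the protease Masp1 by 0.34 ± 0.08 in wild-type mice (0.0139), while Masp2 fell by 0.19 (-0.19 ± 0.05, 0.0117) there and was higher in mutant than in wild-type knockouts (0.20 ± 0.05, 0.023). Colec12 fell in mutant mice (-0.24 ± 0.05, 0.0122) and was lower in mutant than in wild-type knockouts (-0.21 ± 0.05, 0.036). Other than for Colec10, single arrays decided these calls. Fcna was lost in wild-type mice without wild-type control 1 or 2 or wild-type knockout 2 or 3 (adjusted p up to 0.107) and in mutant mice without mutant control 1 or 2 (up to 0.0532). Masp1 was lost without wild-type control 3 or wild-type knockout 2 or 3 (up to 0.0526), and Masp2 without wild-type knockout 1 (0.0544) in wild-type mice and without wild-type knockout 1 or 3 or mutant knockout 1 or 3 (up to 0.1) among the knockouts. Colec12 was lost without mutant control 2 (0.0503) in mutant mice and without wild-type knockout 2 or 3, mutant control 2, or mutant knockout 1 or 3 (up to 0.128) among the knockouts. Colec10, Masp1 and Masp2 were dim. Their group means were 7.38 to 7.77, 7.55 to 8.01 and 7.58 to 7.78, against a filter limit of log2 7.31.

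Of 4 central and terminal components tested, 0 were called higher and 1 lower in wild-type knockouts (9.17% and 9.66% of all genes). In mutant knockouts 0 of the 4 were called, with 1 at an unadjusted p under 0.05 in the limma fit. Of 8 regulators tested, Serping1 included, 2 were called higher and 1 lower in wild-type knockouts. In mutant knockouts 0 of the 8 were called higher and 1 lower (7.66% and 5.77% of all genes). C7, which joins the membrane attack complex, was lower in wild-type knockouts than in wild-type controls (-0.69 ± 0.21, adjusted p = 0.0341) and lower in mutant than in wild-type controls (-0.81 ± 0.21, 0.0378). The first call was lost without any 1 of the wild-type controls or wild-type knockouts 1 or 2 (-0.76 to -0.56, adjusted p up to 0.121), the second without any 1 of the wild-type controls, wild-type knockout 2, or mutant control 1 or 2 (-0.88 to -0.67, up to 0.155). Cd55, decay accelerating factor, rose by 0.63 ± 0.10 in wild-type mice (0.00135) and was lower in mutant than in wild-type knockouts (-0.52 ± 0.10, 0.0124), a call lost without mutant knockout 1 (-0.46, 0.0624). Cd46, a cofactor for C3b cleavage, was higher with the mutation in controls (0.48 ± 0.11, 0.0256) and in knockouts (0.49 ± 0.11, 0.0212). The first was lost without wild-type control 1 or 2 or mutant control 1 or 3 (adjusted p up to 0.08) and the second without wild-type knockout 1 or 2 (up to 0.0893). Cd46 was dim, with mean levels of 7.43 in wild-type controls, 7.91 in mutant controls and 7.76 in mutant knockouts. Its mean in wild-type knockouts, 7.27, lay below the filter limit of log2 7.31. Cd59b, an inhibitor of the membrane attack complex, fell in wild-type (-0.29 ± 0.08, 0.018) and mutant mice (-0.37 ± 0.08, 0.00962). The first call was lost without wild-type control 1 or 3 or wild-type knockout 1 or 3 (adjusted p up to 0.0716). The related gene Cd59a was brighter, with group means of 12.75 to 12.92 against 8 to 8.37 for Cd59b, and was not called in either knockout comparison.

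Among the receptors, counting C3ar1 and C5ar1 and leaving out Vsig4, 5 of 7 were called higher in wild-type knockouts (9.17% of all genes) and 4 of 7 in mutant knockouts (7.66%). Itgam and Itgb2 encode the chains of complement receptor 3. Itgam had mean levels of 8.05 ± 0.07 (SD, n = 3) in wild-type controls, 9.08 ± 0.06 in wild-type knockouts, 8.14 ± 0.11 in mutant controls and 8.61 ± 0.04 in mutant knockouts. It rose by 1.03 ± 0.06 in wild-type mice (adjusted p = 1.39e-06) and 0.47 ± 0.06 in mutant mice (0.00066), and it was lower in mutant than in wild-type knockouts (-0.47 ± 0.06, 0.00115). Itgb2 rose by 0.74 ± 0.09 in wild-type mice (0.000153) and 0.29 ± 0.09 in mutant mice (0.0499), and was lower in mutant than in wild-type knockouts (-0.43 ± 0.09, 0.0137). Its call in mutant mice was lost without any 1 of the wild-type arrays, mutant control 1 or 2, or mutant knockout 2 or 3 (0.21 to 0.30, adjusted p up to 0.171), and that among the knockouts without wild-type knockout 2 or mutant knockout 1 (-0.41 and -0.36, up to 0.0685). Cd93, first described as a C1q receptor, rose by 0.56 ± 0.16 in wild-type mice (0.0302), a call lost without wild-type control 1 or 2 or wild-type knockout 1 or 3 (0.37 to 0.62, up to 0.122). C5ar2, the neighbour of C5ar1 on the chromosome, changed by 0.06 ± 0.07 (0.622) and -0.04 ± 0.07 (0.71) with knockout and was lower in mutant than in wild-type knockouts (-0.30 ± 0.07, 0.034), a call lost without wild-type knockout 2 or 3 or mutant knockout 1 or 2 (-0.32 to -0.23, up to 0.116).

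**Figure D4:**
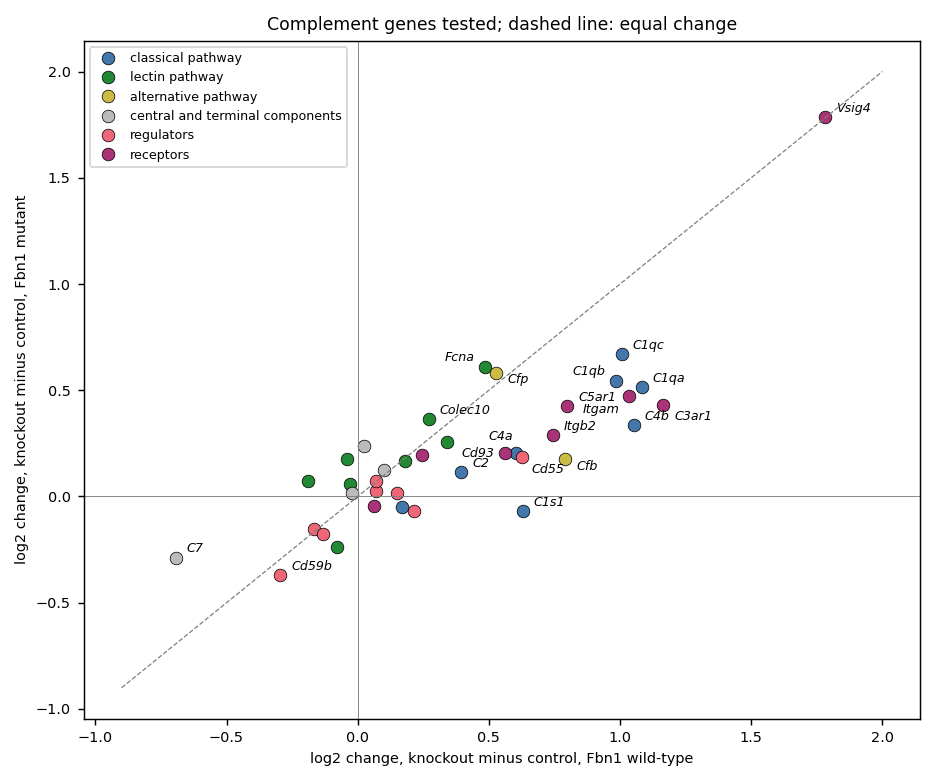
Change with knockout in wild-type mice (horizontal axis, log2) against the change in mutant mice (vertical axis, log2) for the 38 complement genes tested, coloured by role; the dashed line marks equal change. The C1q genes, C3ar1, C5ar1, C4b, Cfb and Itgam lie to the right of the line; Vsig4 lies on it at 1.78 and 1.79.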

How the data were processed

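RNA of mouse ascending aorta was hybridised to 12 1-colour Affymetrix whole-transcript arrays with biotin label, per the labels' protocols. The authors deposited linear intensity values per probe set, made with RMA in Partek 6.4 per the submitters' processing notes, and log2 was taken first here. Symbols came from the platform annotation: of 35556 probe sets 21789 had 1 symbol, 1621 several and 12146 none, and none was named from several; 21698 were matched by Entrez ID to RefSeq, which changed 0 symbols. Each gene was read by its probe set of highest mean, and genes under the 25th percentile (log2 7.31) were not tested. limma 3.58.1 in R 4.3.3 (lmFit, eBayes, two-sided) fitted 1 coefficient per group to all 12 arrays, with 8 residual and 4.54 prior degrees of freedom, and Benjamini-Hochberg adjustment over 14944 genes. Precision is limited by 3 arrays a group. The fit was tested on simulated data with known changes. The 8 genes and all gene lists were chosen with earlier results of these data known. Named were all 8, the complement genes called in any comparison, the first 3 measured markers of each cell type list for which values are given, and the 3 genes nearest in pattern. The alternatives changed the filter, scaling, probe set rule, eBayes trend, array weights, arrays in the fit, a block for the number in the titles and a covariate.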

Additional observations from a re-analysis of the deposited data

Results flagged for a closer look

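Of the complement genes outside the 8, 4 had knockout effects that differed between mutant and wild-type mice by limma's test of the difference itself, each smaller in mutant mice. The difference, on the log2 scale, was -0.70 ± 0.08 (SE) for C1s1 (adjusted p = 0.00216), -0.72 ± 0.13 for C4b (0.019), -0.62 ± 0.11 for Cfb (0.0153) and -0.56 ± 0.09 for Itgam (0.00891). The mean of C1s1 in mutant controls lay 0.49 above that in wild-type controls, and its change with knockout in mutant mice was -0.07 ± 0.06. The call for Cfb was lost without both mutant control 3 and mutant knockout 1 (-0.59, adjusted p = 0.0674); the others kept theirs in the alternatives run, with an adjusted p of at most 0.049 for C4b. Groups of 3 arrays are too small for a test of single outlying arrays.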

How the results depend on the processing

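Over the 7 measured genes and 5 comparisons, 793 values were recomputed: 701 kept direction and side of the threshold, 47 lost the call, 20 gained one and 25 turned sign. In wild-type knockouts C1qa, C1qb, C1qc, C3ar1 and C5ar1 kept their calls in all 23 alternatives, and Vsig4 in those that tested it (a filter at the median left it out). Serping1 lost its call there in 14 of 23. In mutant knockouts C5ar1 lost its call in 13 of 23, C3ar1 in 9, C1qb in 4 and C1qc in 1. C1qa and Vsig4 kept theirs wherever they were tested. The number of the 7 genes called ranged over the arrays left out in turn from 6 to 7 in wild-type and 3 to 6 in mutant knockouts, 0 to 1 for mutant against wild-type controls, 0 to 3 among knockouts and 0 to 1 for the difference of the knockout effects. Over all genes these ranges were 1836 to 2992 of 2814, 896 to 2146 of 2008, 349 to 1073 of 970, 382 to 1019 of 890 and 107 to 202 of 221. With array weights 1 of the 7 was called in controls, 3 among knockouts and 2 for the difference, and 3687 genes were called in mutant mice, 1568 in controls, 1687 among knockouts and 469 for the difference. With an intensity trend 1 was called in controls. With only the groups compared in the fit, 4 were called among knockouts, and 1261 genes in mutant mice and 480 in controls; fewer arrays then estimate the spread. When the immediate early score was a covariate, 2 were called in mutant mice and 0 among knockouts, and 699 genes in mutant mice. The changes behind the lost calls were 0.41 to 0.75 in mutant mice against 0.42 to 0.67 without it, and -0.37 for C1qa among knockouts against -0.40. Their standard errors were larger. Vsig4 kept its call with a smaller change, 1.36 against 1.79 in mutant mice and 1.53 against 1.78 in wild-type mice. Without mutant control 3 and mutant knockout 1, 1082 genes were called in mutant mice and 409 among knockouts. Elsewhere the cause was not tested. Centring arrays on their medians moved the share called higher from 57% to 32.5% in mutant mice, from 47% to 29.5% among knockouts and from 27.1% to 14.8% for the difference, and moved the median of all genes by less than 0.1.

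Sign turned only in values that were not called. The difference of the knockout effects for Vsig4 became -0.034 with quantile normalization, -0.025 with centred arrays and -0.17 with the covariate, and ranged from -0.19 to 0.35 over the arrays left out. Serping1 in mutant mice became -0.023 with centred arrays (-0.0022 to 0.041 over arrays left out) and, among knockouts, 0.0015 with the covariate (-0.018 to 0.0054). In controls without mutant control 3 and mutant knockout 1, C1qb became -0.15, C1qc -0.058 and C5ar1 -0.13; over the arrays left out they ranged from -0.15 to 0.13, -0.058 to 0.26 and -0.13 to 0.15.

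With the replicate block, the pairing being the number in the titles, 2 of the 7 genes were called among knockouts (C1qb, -0.43, adjusted p = 0.0407, joining C1qa) and 1 for the difference (C1qa, -0.57, 0.0387), and Serping1 lost its call (0.0655). Genes called were 2595, 1796, 867, 841 and 199. The numbers were not taken to pair arrays: same-numbered arrays correlated from -0.22 to 0.24 in their deviations, with 3 of 18 pairs over 0.1, against -0.18 to 0.21 and 7 of 36 otherwise.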
